A study of Mus musculus with 38 samples.

Results

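The 35 genes described here build, sense, move and export sterols or make long-chain fatty acids, and their RNA was followed in mouse CD4 T cells before and after activation. They were taken by symbol from a fixed list, and all 35 were found among the 24028 genes of the deposited count table and among the 13650 genes with enough counts to be tested. Each library came from the naive CD4 T cells of 1 mouse, female or male, with its spleen and lymph nodes pooled. PolyA RNA was sequenced from fresh cells or from cells held for 24 h on antibodies to CD3 (0.5 µg/ml) and CD28 (0.2 µg/ml), with 50 U/ml of interleukin-2. The 38 libraries covered 5 genotypes: wild-type mice, CD28-/- mice (called CD28ko-labelled), mice whose floxed miR-17~92 cluster is deleted by a Cd4-driven Cre (T1792del), mice in which this Cre opens a loxP-flanked stop before a CAG-driven miR-17~92 transgene in Rosa26 (T1792tg), and CD28-/- mice that carry the same Cre and transgene (rescue). Each genotype had 4 libraries in each state, except rescue with 3. No group carried Cre alone and no cells were cultured without stimulation, so a difference of T1792del or T1792tg from wild-type, or of rescue from wild-type or CD28ko-labelled cells, includes the Cre, and the response to stimulation includes 24 h of culture. Ages are not given in the labels.

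Sterol synthesis starts from acetyl-CoA, runs through mevalonate and isoprenoid diphosphates to squalene, and ends after ring closure and trimming in cholesterol. When membrane sterol is low, SCAP carries the SREBP transcription factors, encoded by Srebf1 and Srebf2, from the endoplasmic reticulum to the Golgi, where they are cut and released to switch on these genes; INSIG proteins hold SCAP back when sterol is ample. Oxysterols made from surplus sterol switch on the opposite arm through liver X receptors (LXR), whose targets Abca1 and Abcg1 export cholesterol and whose target Mylip marks lipoprotein receptors for degradation. Activated T cells are known to raise sterol and fatty acid synthesis before they divide.

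Libraries held 19427291 to 24982429 counts in naive and 22267060 to 28020721 counts in stimulated cells. Levels are counts per 1000000 counts (CPM) on scaled library sizes, listed by replicate number; folds are log2 with their standard error, and a gene was called at a Benjamini-Hochberg adjusted p below 0.05 in edgeR's quasi-likelihood test over all 13650 genes. Cd28 counts did not separate the CD28ko-labelled naive cells (737 ± 135 CPM, SD, n = 4) from wild-type (825 ± 86.8 CPM, SD, n = 4), so that label is not checked by this table. Mir17hg, from which the cluster is cut, was at 172 ± 11.8 CPM in stimulated T1792del and 20.7 ± 2.44 CPM in stimulated wild-type cells (SD, n = 4), and its counts do not show the loss of the microRNAs inside it. All CD28ko-labelled and rescue libraries carried a female profile, against 3 wild-type mice of 4, 2 T1792del mice of 4 and 1 T1792tg mouse of 4 in each state. In bulk RNA, fewer cells of a type and less RNA per cell cannot be told apart. The summed level of 6 T cell identity markers was 3760 to 4342 CPM in naive and 2155 to 3368 CPM in stimulated libraries, while the sum of 10 myeloid markers was 75.5 to 325 CPM in naive and 3.59 to 7.78 CPM in stimulated libraries.

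Stimulation raised most of the synthesis genes and lowered the export arm in every genotype. In wild-type cells 26 of the 35 genes were called higher and 6 lower, with a median log2 fold change of 0.94, where 41.3% of all tested genes were called higher and 43.9% lower with a median of -0.06. Of the 19 genes of the sterol pathway proper (mevalonate steps, squalene to cholesterol, and the transporter Stard4), 18 rose and 1 fell in wild-type cells, with a median of 1.65. In all 5 genotypes 22 members were called higher and 5 were called lower (Abca1, Abcg1, Mylip, Scd1 and Tm7sf2), where 31.6% of tested genes were called higher and 32.4% lower in every genotype. The 8 others (Srebf1, Srebf2, Scap, Insig1, Insig2, Dhcr7, Scd2 and Elovl6) were not called in 1 direction in all genotypes. The median of the 35 genes was 0.60 in CD28ko-labelled cells (26 higher, 6 lower, where 39.7% and 41.2% of tested genes were called), 1.32 in T1792del cells (29 and 5, where 41.4% and 43.7% were called), 0.85 in T1792tg cells (27 and 6, where 41% and 44.1% were called) and 0.83 in rescue cells (24 and 5, where 38.8% and 40.8% were called). With so many genes called, a call alone says little, and the sizes are given by role.

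**Figure D1:**
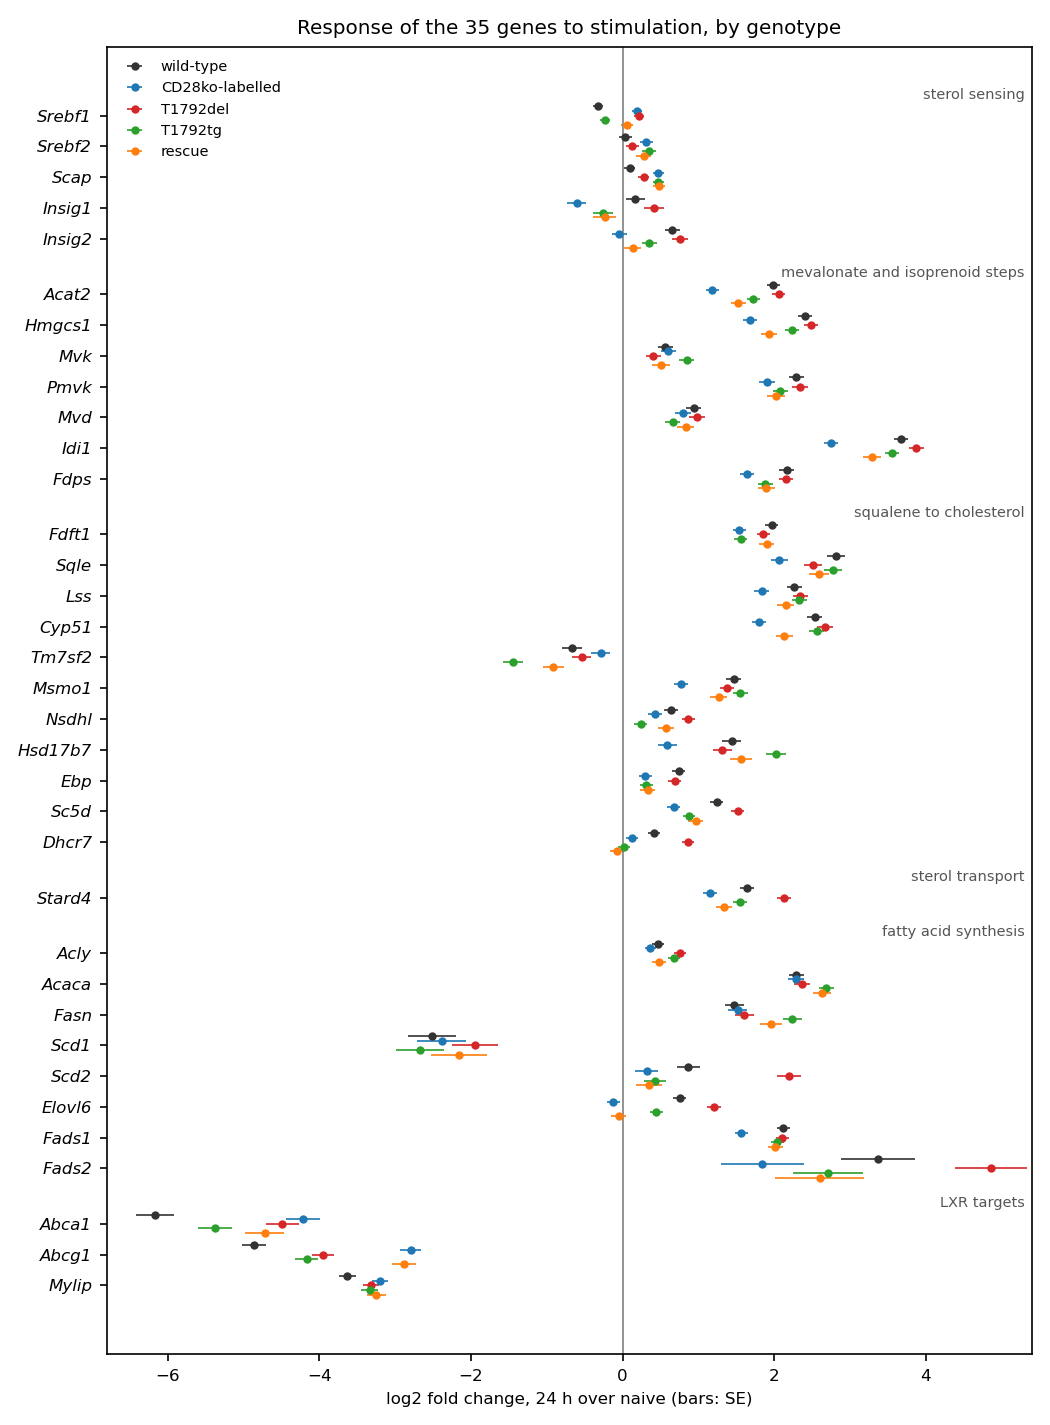
Log2 fold change between stimulated and naive cells (horizontal axis) for the 35 genes, grouped by role, with 1 point per genotype and bars of ± 1 standard error. The mevalonate and squalene genes lie to the right of 0 in each genotype except Tm7sf2 and, in rescue cells, Dhcr7. Abca1, Abcg1 and Mylip lie far to the left of 0.

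Among the mevalonate and isoprenoid genes, Idi1 and Hmgcs1 moved most in wild-type cells. Idi1 (Entrez gene 319554, chromosome 13:8885606-8892396, GRCm38.p6), the isomerase that makes the second isoprenoid building block, was at 5.68, 6.56, 5.69 and 7.37 CPM in naive and 88.6, 82.4, 76.3 and 75 CPM in stimulated wild-type libraries (log2 fold change 3.67 ± 0.10, adjusted p = 2.5e-27). The groups were far apart, and no other member rose as far in wild-type cells. Hmgcs1 (Entrez gene 208715, chromosome 13:119690351-119708260), which makes the precursor of mevalonate, was at 45.4, 49.9, 45.4 and 48.8 CPM in naive and 285, 246, 242 and 234 CPM in stimulated wild-type libraries (log2 fold change 2.41 ± 0.09, adjusted p = 5.9e-23). The groups did not overlap. The acetoacetyl-CoA thiolase Acat2 rose by a log2 fold change of 1.99 ± 0.09, adjusted p = 2.5e-21, and the farnesyl diphosphate synthase Fdps by 2.17 ± 0.10, adjusted p = 4e-21. The 2 kinases that phosphorylate mevalonate in turn differed in size, with Mvk at 0.56 ± 0.10, adjusted p = 5.9e-06 and Pmvk at 2.29 ± 0.10, adjusted p = 4e-21. Mvd, which decarboxylates the product, lay between them at 0.94 ± 0.10, adjusted p = 1.7e-10. All 7 genes of this role were called higher in all 5 genotypes. Of the 22 genes higher in each genotype, Nsdhl was not called in T1792tg cells without naive or stimulated library 1, nor Ebp in rescue cells without naive library 3 (adjusted p 0.0515 to 0.0725). Acat2 and Fdps have near copies in the genome, and their counts are uncertain to that extent.

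The promoter of Hmgcs1 is shown because, of the members' promoters searched, only it had the core of a sterol regulatory element, the DNA site of the SREBP factors. RefSeq promoter windows, from 250 bases before to 50 after a transcript start, were at hand for 27 of the 35 members. Fdps, Fdft1, Sqle, Stard4, Scd1, Scd2, Fads1 and Abcg1 had no window and were not searched. That start is not always the outer end of the gene, as for Dhcr7, and a gene such as Srebf1 can have several windows. On both strands the core TCACNCCAC was found in 1 of 27 members (3.7%), in 1.39% of tested genes with a window and in 1.24% of all 32851 windows. Members and tested genes were counted once per gene, and the last share is per window. CCAAT, the motif of a partner factor of SREBP, was found in 21 of 27 members (77.8%), in 43.1% of tested genes with a window and in 37.4% of all windows. A pair of AGGTCA motifs 4 bases apart, the LXR type of site, was found in 0 members, in 0 tested genes and in 5 of all 32851 windows, too rare for the members' count to be read. These are matches of letters in a short window and show no binding. In 99 bases of the Hmgcs1 window (GRCm38.p6, chr13:119690169-119690267, plus strand), the capitals mark the core and, read on the other strand, a CCAAT motif.
Hmgcs1: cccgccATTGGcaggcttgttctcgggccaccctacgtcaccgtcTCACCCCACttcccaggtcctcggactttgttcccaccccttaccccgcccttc

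Of the 11 genes that lead from squalene to cholesterol, 10 rose in wild-type cells and Tm7sf2 fell. Sqle (Entrez gene 20775, chromosome 15:59315092-59331193), the squalene epoxidase that limits this stretch, was at 14.2, 17.1, 13.2 and 16 CPM in naive and 124, 106, 95 and 99.1 CPM in stimulated wild-type libraries (log2 fold change 2.81 ± 0.12, adjusted p = 5.6e-22). Cyp51, which removes a methyl group from lanosterol, followed with 2.54 ± 0.10, adjusted p = 8.7e-23, then the ring-closing lanosterol synthase Lss with 2.27 ± 0.10, adjusted p = 2.6e-21 and the squalene synthase Fdft1 with 1.97 ± 0.09, adjusted p = 3.3e-21. The later enzymes rose less: the C4 oxidase Msmo1 by 1.47, Hsd17b7 by 1.44, the desaturase Sc5d by 1.24, the isomerase Ebp by 0.74, Nsdhl by 0.64 and the last reductase Dhcr7 by 0.41. Dhcr7 was called higher in wild-type and T1792del cells only, with values of 0.13 in CD28ko-labelled, 0.02 in T1792tg and -0.07 in rescue cells that were not called. Tm7sf2, a sterol C14 reductase, fell from 8.82 ± 0.717 to 5.56 ± 0.864 CPM (SD, n = 4) in wild-type cells (log2 fold change -0.67 ± 0.13, adjusted p = 1.3e-05). Its exons share 532 bases with Vps51 on the same strand, and Fdft1, Cyp51 and Srebf1 overlap neighbours on the opposite strand, so reads of these genes could be shared. Stard4, a carrier of sterol between membranes, was at 17.9, 18.6, 16.2 and 19.3 CPM in naive and 59.6, 56.4, 56 and 53.2 CPM in stimulated wild-type libraries (log2 fold change 1.65 ± 0.09, adjusted p = 2.4e-18), again without overlap.

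Of the 5 genes of the sensing machinery 1 rose and 1 fell in wild-type cells, with a median log2 fold change of 0.09. Srebf2 (Entrez gene 20788, chromosome 15:82147269-82205379), the master factor of the sterol genes, was at 334, 285, 266 and 296 CPM in naive and 290.3, 299, 319 and 306 CPM in stimulated wild-type libraries, which overlapped (log2 fold change 0.04 ± 0.09, adjusted p = 0.67). Srebf1 (Entrez gene 20787, chromosome 11:60199084-60224186), the factor tied more to fatty acid genes, was at 107, 103, 93.2 and 105 CPM in naive and 82.3, 79.5, 79.9 and 83.8 CPM in stimulated wild-type libraries (log2 fold change -0.33 ± 0.07, adjusted p = 2.7e-05). Srebf1 was lower after stimulation in wild-type and T1792tg cells (-0.23) and higher in CD28ko-labelled (0.20) and T1792del cells (0.22). Insig1 (Entrez gene 231070, chromosome 5:28071412-28078662), which is itself switched on by SREBP, was at 71.3, 117, 95.8 and 88.8 CPM in naive and 122, 104, 95.4 and 98.6 CPM in stimulated wild-type libraries (log2 fold change 0.17 ± 0.13, adjusted p = 0.21). It was called lower in CD28ko-labelled cells (-0.61 ± 0.13, adjusted p = 7.9e-05) and higher in T1792del cells (0.42 ± 0.13, adjusted p = 0.0034). Insig2, its paralogue, rose in wild-type (0.66), T1792del (0.76) and T1792tg cells (0.35). Scap was called higher in each genotype but wild-type, where it stood at 0.09 ± 0.07, adjusted p = 0.21.

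Of the 8 fatty acid genes 7 rose in wild-type cells and the desaturase Scd1 fell. Acaca (Entrez gene 107476, chromosome 11:84129635-84401651), which makes malonyl-CoA and commits carbon to fatty acids, was at 25.9, 24.5, 21.8 and 25.5 CPM in naive and 128, 121, 122 and 108 CPM in stimulated wild-type libraries (log2 fold change 2.29 ± 0.10, adjusted p = 3e-21). Fasn (Entrez gene 14104, chromosome 11:120805958-120825166), the synthase itself, was at 228, 237, 237 and 217 CPM in naive and 694, 673, 639 and 547 CPM in stimulated wild-type libraries (log2 fold change 1.47 ± 0.12, adjusted p = 3.6e-13). Acly, which supplies cytosolic acetyl-CoA from citrate, rose less (0.47 ± 0.08, adjusted p = 1.6e-06). Per kilobase of the deposited gene length Acly still had the highest level of the 35 genes in both states, at 65.7 CPM per kb in naive and 90.7 CPM per kb in stimulated wild-type cells. The elongase Elovl6 rose by 0.75 ± 0.09, adjusted p = 8.3e-10 in wild-type cells, the desaturase Fads1 by 2.12 ± 0.09, adjusted p = 2.9e-22 and the desaturase Fads2 by 3.37 ± 0.49, adjusted p = 9.9e-08. Fads2 counts were low in naive wild-type cells, at 0.247 to 0.795 CPM, and 1 naive CD28ko-labelled library had 0 counts. The stearoyl-CoA desaturases went opposite ways. Scd1 (Entrez gene 20249, chromosome 19:44394450-44407709) was at 30.4, 50.3, 39.3 and 20.1 CPM in naive and 6.36, 8.35, 6.51 and 3.33 CPM in stimulated wild-type libraries (log2 fold change -2.51 ± 0.32, adjusted p = 7.2e-09). Scd2 (Entrez gene 20250, chromosome 19:44293676-44306864) was at 84.7, 92.1, 76.7 and 83.6 CPM in naive and 195, 162, 124 and 134 CPM in stimulated wild-type libraries (log2 fold change 0.87 ± 0.15, adjusted p = 2.4e-06). Neither pair of groups overlapped, but reads of these near copies may have been split. In CD28ko-labelled cells the Scd2 rise of 0.32 ± 0.15, adjusted p = 0.0495 was not called without naive library 1 or 4 or stimulated library 1, 2 or 3, and the Tm7sf2 decrease not without naive library 2 or 4 or stimulated library 2 or 3 (adjusted p 0.0647 to 0.139).

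**Figure D2:**
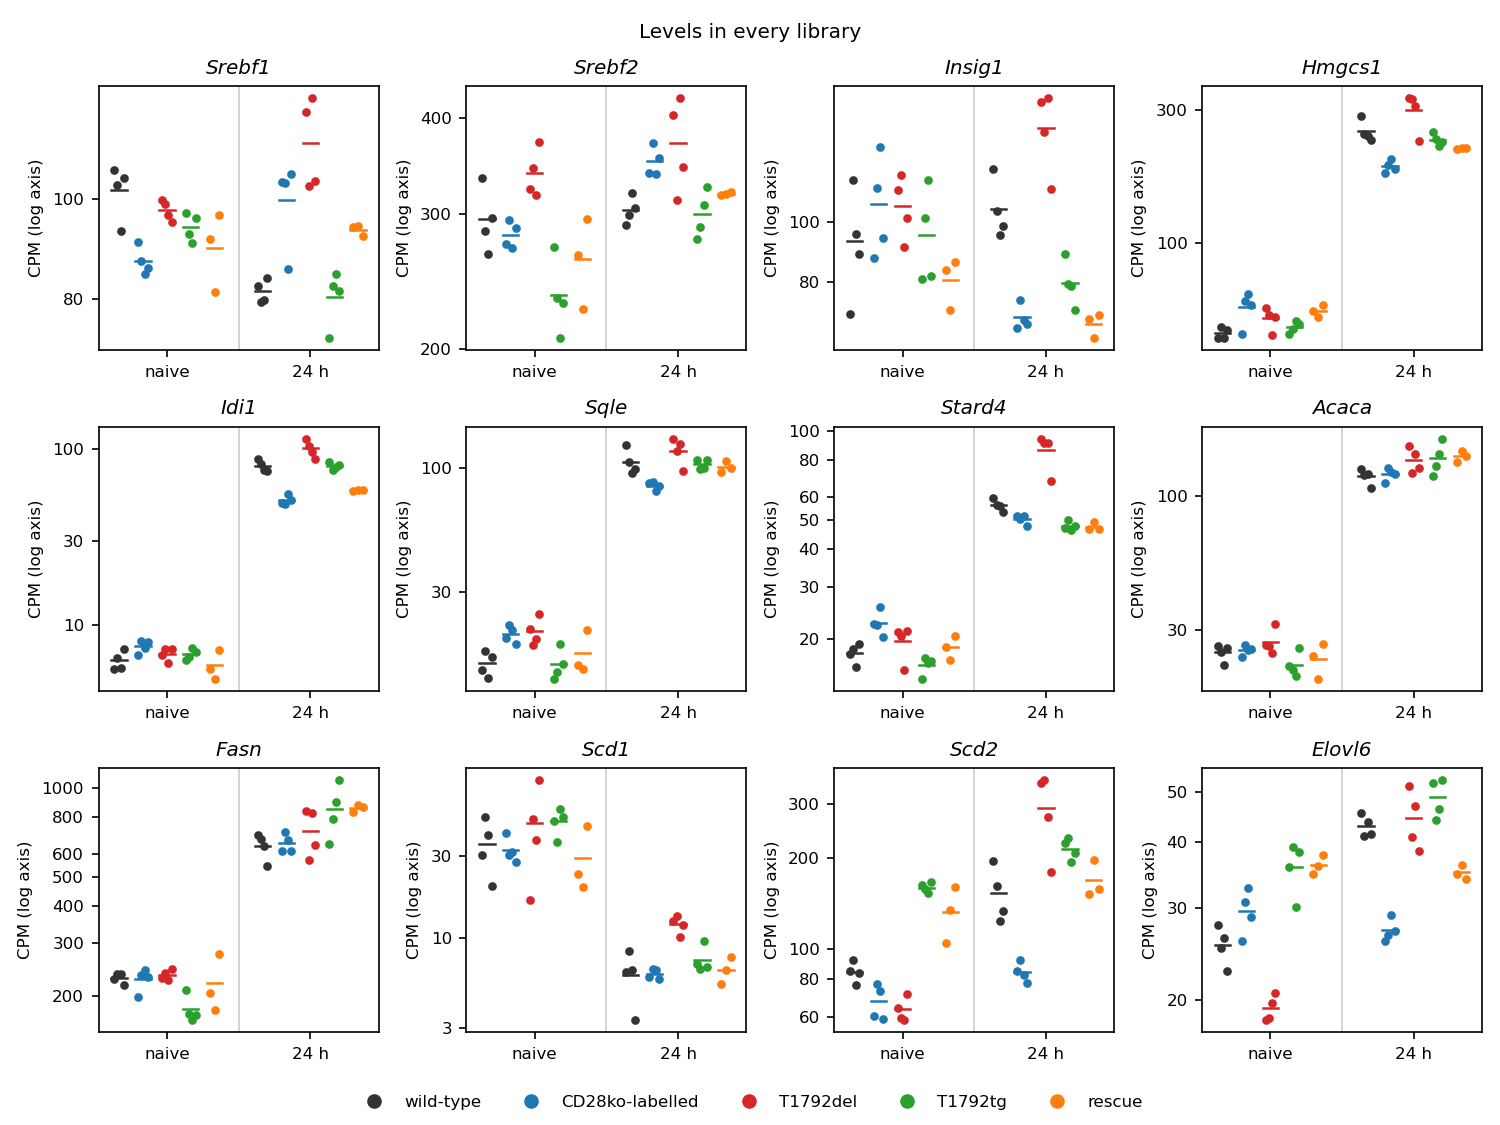
CPM on a log axis for 12 genes, with 1 point per library and a bar at each group mean, for naive and stimulated cells of 5 genotypes. Idi1, Hmgcs1, Sqle and Acaca step up in each genotype, Scd1 steps down, and Srebf2 stays within 207 to 424 CPM in all libraries.

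The 3 LXR targets fell most. Abca1 (Entrez gene 11303, chromosome 4:53030789-53159988) was at 53.4, 45.6, 56.4 and 51.1 CPM in naive and 0.623, 0.907, 0.663 and 0.641 CPM in stimulated wild-type libraries (log2 fold change -6.17 ± 0.25, adjusted p = 4e-22). Abcg1 (Entrez gene 11307, chromosome 17:31057694-31117984) was at 139, 157, 153 and 138 CPM in naive and 6.36, 5.22, 3.55 and 5.13 CPM in stimulated wild-type libraries (log2 fold change -4.86 ± 0.16, adjusted p = 3.5e-25). Mylip (Entrez gene 218203, chromosome 13:45389742-45411940) was at 65.4, 71.2, 62.5 and 62.5 CPM in naive and 5.12, 5.18, 4.72 and 6.09 CPM in stimulated wild-type libraries (log2 fold change -3.63 ± 0.11, adjusted p = 1.2e-25). For each of the 3 genes every stimulated library lay below every naive library, and the fall was called in all 5 genotypes. All 10 myeloid markers fell as well in every genotype, from a sum of 112 to 169 CPM to one of 3.67 to 6.59 CPM in wild-type libraries, and the sum of 6 B cell markers fell from 152 to 314 CPM to 25.7 to 65.8 CPM. Their part in the fall of Abca1 and Abcg1, which macrophages also express, was not tested.

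**Figure D3:**
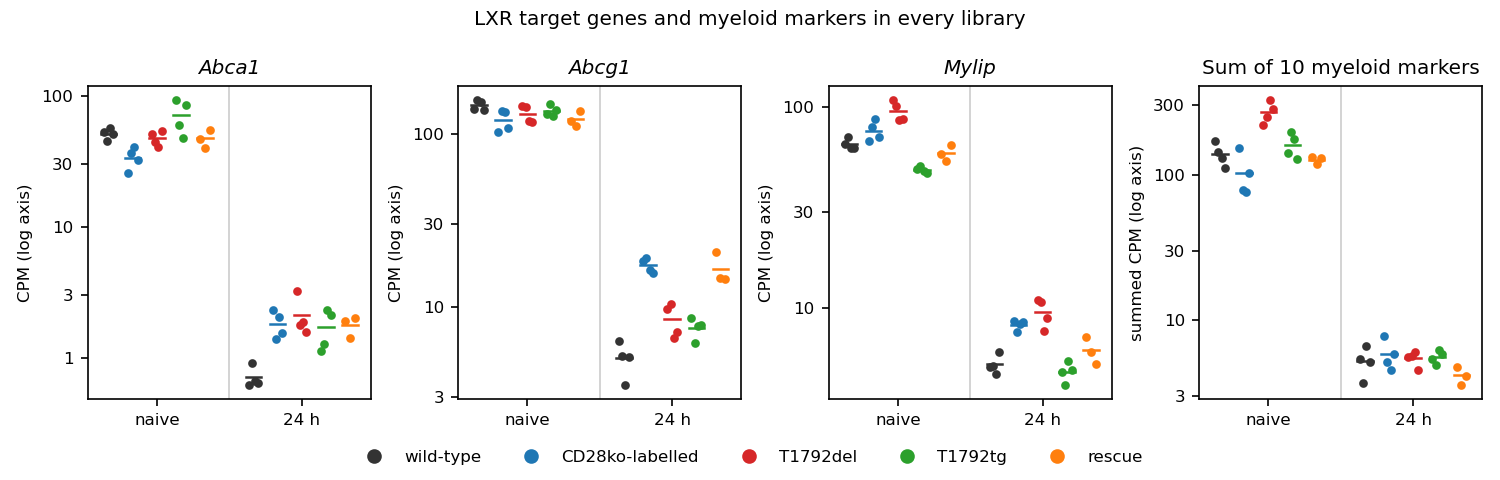
CPM on a log axis of Abca1, Abcg1 and Mylip and the summed level of 10 myeloid markers, with 1 point per library and a bar at each group mean. All 4 measures are lower in stimulated than in naive cells of each genotype, and stimulated CD28ko-labelled and rescue libraries have more Abcg1 than the other stimulated groups.

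At 24 h the CD28ko-labelled cells held less RNA of the sterol genes and more of the LXR targets than wild-type cells, a comparison that asks how far the genotype changes the activated state. Of the 35 genes 19 were lower and 7 higher (median -0.23), where 27.8% of all tested genes were lower and 23.7% higher (median -0.03). Of the 19 sterol pathway genes 13 were lower and 1, Tm7sf2, was higher (median -0.33). Idi1 was at 49.5, 48.6, 55.5 and 51.4 CPM in stimulated CD28ko-labelled libraries against the wild-type values above (log2 fold change -0.65 ± 0.08, adjusted p = 5.1e-08). Hmgcs1 was at 179, 189.8, 200.4 and 184 CPM (log2 fold change -0.42 ± 0.09, adjusted p = 0.00013). Both genes lay below wild-type in every library. Pmvk (-0.67), Acat2 (-0.73) and Hsd17b7 (-0.70) had the largest decreases of the sterol pathway. Sqle, at 86, 87.1, 80.3 and 83.5 CPM, was -0.33 ± 0.11, adjusted p = 0.0081, and Insig1, at 67.6, 75.1, 69.7 and 68.7 CPM, was -0.58 ± 0.13, adjusted p = 0.00032. Stard4, at 51.8, 50.7, 51.7 and 47.7 CPM, was not called (-0.16 ± 0.09, adjusted p = 0.13). Srebf2, at 339, 371, 338 and 355 CPM, was higher (0.21 ± 0.09, adjusted p = 0.041), as was Srebf1 at 104, 104, 85.5 and 106 CPM (0.29 ± 0.07, adjusted p = 0.00029). The factor transcripts and most of the pathway's transcripts differed in opposite directions in these cells.

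Fatty acid synthesis split in the same stimulated CD28ko-labelled cells. Acaca was at 113, 129, 124 and 122 CPM (0.03 ± 0.09, adjusted p = 0.81) and Fasn at 612, 713, 669 and 615 CPM (0.03 ± 0.12, adjusted p = 0.85), and neither was called, nor was Acly (0.01 ± 0.08, adjusted p = 0.93). Scd2 was at 84.7, 92.2, 82.6 and 77.5 CPM (-0.87 ± 0.15, adjusted p = 8.7e-06), below each wild-type library. Elovl6 (-0.66 ± 0.09, adjusted p = 7.9e-08), Fads1 (-0.28 ± 0.08, adjusted p = 0.004) and Fads2 (-1.75 ± 0.41, adjusted p = 0.00055) were lower, and Scd1, at 5.9, 6.64, 6.51 and 5.77 CPM, was not called (0.01 ± 0.34, adjusted p = 0.99). Abca1 was at 2.3, 1.38, 2.05 and 1.55 CPM and higher than in wild-type (1.35 ± 0.32, adjusted p = 0.00063). Abcg1 was at 18.4, 19.3, 16.3 and 15.7 CPM (1.78 ± 0.15, adjusted p = 1.1e-11), and Mylip at 8.66, 7.64, 8.36 and 8.57 CPM (0.65 ± 0.12, adjusted p = 1.3e-05). Every CD28ko-labelled library exceeded every wild-type library for these 3 genes. The myeloid sum was 4.54 to 7.78 CPM in the CD28ko-labelled and 3.67 to 6.59 CPM in the wild-type stimulated libraries, and the B cell sum 54.5 to 80.7 and 25.7 to 65.8 CPM. The sum of 5 naive T cell markers was higher in stimulated CD28ko-labelled (1624 to 1811 CPM) than in stimulated wild-type libraries (954 to 1115 CPM), and the sum of 6 T cell identity markers was 2908 to 3368 CPM against 2423 to 2857 CPM. The sum of 4 regulatory T cell markers was lower, at 95.9 to 132 CPM against 185 to 204 CPM, as were those of 6 CD8 and NK cell markers (21.5 to 23.8 against 27.6 to 38.9 CPM) and 2 red cell markers (0.0803 to 1.67 against 1.81 to 2.57 CPM). The part of these markers in the differences was not tested. Fdft1 and Sqle were not called without wild-type library 1, Ebp without CD28ko-labelled library 3, Dhcr7 without CD28ko-labelled library 3 or 4 or wild-type 1 or 4, and Srebf2 without CD28ko-labelled 2 or 4 or wild-type 1, 2 or 4 (adjusted p 0.0517 to 0.13).

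The response itself also differed between these genotypes in a test of the interaction. The stimulation response was smaller or more negative in CD28ko-labelled than in wild-type cells for 20 members and larger or less negative for 5, where 22.4% and 20.8% of all tested genes were called. The 20 included 15 of the 19 sterol pathway genes (median -0.49), led in size by Idi1 (-0.92 ± 0.13, adjusted p = 8.9e-07), Hsd17b7 (-0.85 ± 0.17, adjusted p = 0.00016) and Acat2 (-0.80 ± 0.12, adjusted p = 1.7e-06). The 5 were Abcg1 (2.07 ± 0.20, adjusted p = 3.5e-10), Abca1 (1.96 ± 0.36, adjusted p = 4.3e-05), Srebf1 (0.52 ± 0.09, adjusted p = 2.3e-05), Mylip (0.43 ± 0.15, adjusted p = 0.019) and Scap (0.38 ± 0.10, adjusted p = 0.0024). Mylip was not called without stimulated wild-type library 3 (adjusted p = 0.0508), and the calls of Pmvk, Dhcr7 and Scd2 were each lost without any of several single libraries. For Pmvk these were naive CD28ko-labelled 1, naive wild-type 1 or 3, stimulated CD28ko-labelled 1 and stimulated wild-type 1 or 2. For Scd2 they were naive CD28ko-labelled 2 or 3, naive wild-type 3, stimulated CD28ko-labelled 3 or 4 and stimulated wild-type 1 or 2. Dhcr7 kept its call without naive CD28ko-labelled 1 or 4, naive wild-type 4, stimulated CD28ko-labelled 1 or stimulated wild-type 3, and lost it without each of the other 11 libraries. This contrast uses the same wild-type libraries as the comparison at 24 h and is no second sample of it.

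**Figure D4:**
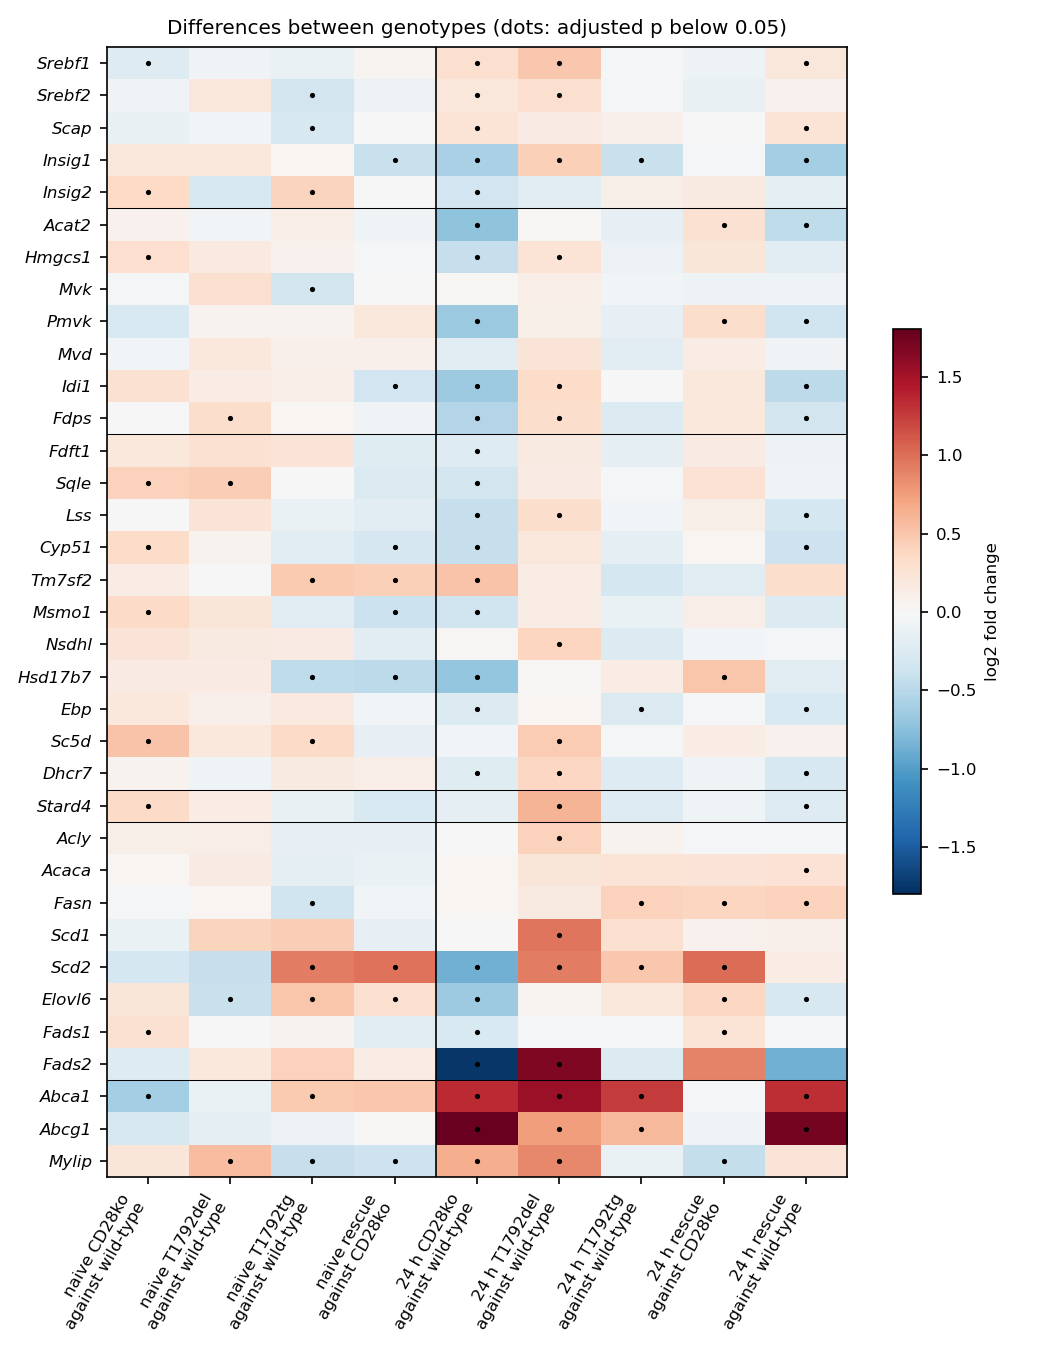
Log2 fold change of the 35 genes (rows, by role) in 9 comparisons between genotypes (columns), from blue (lower) to red (higher), with a dot where the gene was called. The column of stimulated CD28ko-labelled against wild-type cells is blue for most sterol genes, and that of stimulated T1792del against wild-type cells has 18 dots, each on a higher value.

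The rescue genotype puts the miR-17~92 transgene on the CD28-/- background, so rescue against CD28ko-labelled cells addresses what Cre and transgene together add. At 24 h 7 members were higher and 1 lower in rescue than in CD28ko-labelled cells (median 0.12), where 9.52% of tested genes were higher and 8.86% lower. The sterol genes called higher were Hsd17b7 (0.50 ± 0.13, adjusted p = 0.0048), Pmvk (0.31 ± 0.10, adjusted p = 0.028) and Acat2 (0.27 ± 0.09, adjusted p = 0.027). The fatty acid genes called higher were Scd2, Fasn, Elovl6 and Fads1. Scd2 was at 153, 197 and 157 CPM in stimulated rescue libraries, each above the CD28ko-labelled values (log2 fold change 1.003 ± 0.16, adjusted p = 1.7e-05). Fasn was at 828, 875 and 860.2 CPM (log2 fold change 0.39 ± 0.13, adjusted p = 0.033), Elovl6 differed by 0.37 ± 0.09, adjusted p = 0.0044 and Fads1 by 0.25 ± 0.09, adjusted p = 0.036. Mylip was lower, at 7.19, 6.09 and 5.31 CPM (log2 fold change -0.42 ± 0.12, adjusted p = 0.013). Abca1, at 1.92, 1.43 and 2.01 CPM, and Abcg1, at 20.9, 14.6 and 14.4 CPM, were not called (-0.02 ± 0.29, adjusted p = 0.98 and -0.06 ± 0.15, adjusted p = 0.84). Idi1, at 57.8, 58.8 and 58.4 CPM, and Hmgcs1, at 218, 218 and 219 CPM, lay above every CD28ko-labelled library without passing the test (0.19 ± 0.09, adjusted p = 0.15 and 0.21 ± 0.09, adjusted p = 0.11). The naive T cell marker sum, at 1235 to 1599 CPM, and the T cell identity sum, at 2523 to 2880 CPM, lay below the CD28ko-labelled ranges, and the CD8 and NK sum, at 27.9 to 36.7 CPM, above; their part was not tested. Leaving out any of 2 to 6 single libraries ended the calls of Acat2, Pmvk, Fasn, Fads1 and Mylip (adjusted p 0.0519 to 0.164); rescue libraries 2 and 3 did so for all 5, CD28ko-labelled 1 and 3 for all but Mylip, CD28ko-labelled 4 for Fasn and Fads1, and CD28ko-labelled 2 for Fads1. A fit of these 2 groups alone called 13 members higher and 2 lower, while its calls over all genes rose from 2510 to 3851. Without rescue library 2 or 3 the calls over all genes fell to 1300.0 and 1595.

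Against wild-type, stimulated rescue cells had 11 members lower and 6 higher (median -0.07), where 17.7% of tested genes were lower and 17.4% higher. Of the sterol pathway genes 9 were lower and 0 higher (median -0.24). Idi1 (-0.47 ± 0.09, adjusted p = 0.00013) and Acat2 (-0.46 ± 0.09, adjusted p = 0.00013) were the lowest of the 9, and Insig1 was lower still (-0.61 ± 0.14, adjusted p = 0.00093). Abcg1 (1.72 ± 0.16, adjusted p = 4.6e-10) and Abca1 (1.32 ± 0.34, adjusted p = 0.0023) were higher, as were Fasn (0.42 ± 0.13, adjusted p = 0.012), Acaca (0.26 ± 0.10, adjusted p = 0.0403), Scap (0.25 ± 0.08, adjusted p = 0.012) and Srebf1 (0.20 ± 0.07, adjusted p = 0.026). Scd2 was not called (0.14 ± 0.16, adjusted p = 0.54). In rescue libraries the naive T cell marker sum of 1235 to 1599 CPM lay above the wild-type range of 954 to 1115 CPM, and the regulatory T cell sum (95.5 to 131 against 185 to 204 CPM) and red cell sum (0.0723 to 1.66 against 1.81 to 2.57 CPM) lay below; their part was not tested. Single libraries ended the calls of Pmvk (rescue 1), Fdps and Lss (wild-type 1), Ebp (rescue 2 or 3, wild-type 1), Srebf1 (rescue 1 or 2, wild-type 2 or 3), Stard4 (any rescue library, wild-type 1, 2 or 3) and Acaca (any rescue library, wild-type 2, 3 or 4), with adjusted p 0.051 to 0.137. The response to stimulation was larger or less negative in rescue than in CD28ko-labelled cells for 5 members and more negative for Tm7sf2 (-0.62 ± 0.19, adjusted p = 0.025), where 6.96% and 5.84% of tested genes were called. The 5 were Hsd17b7 (0.98 ± 0.19, adjusted p = 0.00071), Idi1 (0.54 ± 0.14, adjusted p = 0.012), Sqle (0.52 ± 0.17, adjusted p = 0.037), Msmo1 (0.50 ± 0.15, adjusted p = 0.022) and Fads1 (0.45 ± 0.13, adjusted p = 0.018). Of these 6 only Hsd17b7 was called without each single library. Idi1 was not called without naive rescue 2, nor Fads1 without naive rescue 1 or 2, nor Msmo1 without naive CD28ko-labelled 4, naive rescue 3 or stimulated rescue 2. Tm7sf2 was not called without naive rescue 2, stimulated CD28ko-labelled 1 or stimulated rescue 2, nor Sqle without naive CD28ko-labelled 2 or 3, naive rescue 1 or 2, stimulated CD28ko-labelled 3 or 4 or stimulated rescue 2 or 3.

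Stimulated T1792del cells had 18 members higher than wild-type and 0 lower (median 0.25), where 7.77% of tested genes were higher and 8.47% lower. Members of each role were among the 18. Srebf1 was at 122, 103, 125 and 104 CPM in stimulated T1792del libraries (log2 fold change 0.48 ± 0.07, adjusted p = 2.6e-06), each above the wild-type libraries. Srebf2 was at 403, 313, 424 and 345 CPM and Insig1 at 156, 139, 158 and 113 CPM, both overlapping wild-type (0.29 ± 0.09, adjusted p = 0.019 and 0.43 ± 0.13, adjusted p = 0.019). Of the sterol pathway 8 of 19 genes were higher (median 0.20), led by Stard4 at 93.8, 91.2, 91.2 and 68 CPM (log2 fold change 0.61 ± 0.09, adjusted p = 4.6e-06) and Sc5d (0.46 ± 0.08, adjusted p = 0.00017). Idi1 was at 114, 105, 96.9 and 88.3 CPM (log2 fold change 0.33 ± 0.08, adjusted p = 0.0055) and Hmgcs1 at 331, 327, 309.8 and 231 CPM (log2 fold change 0.25 ± 0.09, adjusted p = 0.0413), with overlap for both. Sqle, at 132, 117, 125 and 97.2 CPM, was not called (0.15 ± 0.10, adjusted p = 0.35).

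Among the fatty acid genes of T1792del cells at 24 h, Fads2 had the largest difference, at 21.2, 15, 18 and 12.2 CPM, where the wild-type libraries had 7.52, 5.82, 4.95 and 2.48 CPM (log2 fold change 1.68 ± 0.37, adjusted p = 0.0018). Scd2 was at 353, 359.9, 273 and 179 CPM, with library 4 inside the wild-type range (log2 fold change 0.92 ± 0.15, adjusted p = 3.4e-05). Scd1 was at 12.6, 13.4, 10.1 and 11.8 CPM, each above wild-type (log2 fold change 0.96 ± 0.32, adjusted p = 0.036), and Acly differed by 0.42 ± 0.08, adjusted p = 0.00028. Acaca (157, 123, 146 and 129 CPM, 0.22 ± 0.09, adjusted p = 0.11) and Fasn (833, 573, 822 and 640.0 CPM, 0.17 ± 0.12, adjusted p = 0.37) were not called. The LXR targets were higher together: Abca1 was at 3.21, 1.78, 1.88 and 1.57 CPM (1.56 ± 0.31, adjusted p = 0.00055). Abcg1 was at 9.75, 10.4, 6.62 and 7.15 CPM (0.75 ± 0.16, adjusted p = 0.0013) and Mylip at 11, 10.8, 7.77 and 8.98 CPM (0.87 ± 0.11, adjusted p = 1.3e-06), and no T1792del library of these 3 genes fell within the wild-type range. The summed myeloid markers of the same stimulated libraries, at 4.53 to 5.97 CPM, lay within the wild-type range, while 2 red cell markers summed to 3.71 to 31.1 CPM against 1.81 to 2.57 CPM in wild-type; their part was not tested. Without T1792del library 1 the calls over all genes fell from 2216 to 1388. With the female libraries alone (2 T1792del and 3 wild-type) 7 members were higher and 0 lower. The calls of Srebf2, Insig1, Hmgcs1, Fdps, Lss and Scd1 were each lost without any of 2 to 6 single libraries (adjusted p 0.0508 to 0.165). T1792del libraries 1, 2, 3 and 4 ended 5, 2, 4 and 1 of these calls, and wild-type libraries 1, 2, 3 and 4 ended 2, 1, 5 and 5.

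The response to stimulation was larger or less negative in T1792del than in wild-type cells for 7 members and smaller for 0, where 3.15% and 2.95% of tested genes were called. The 7 were Abca1 (1.68 ± 0.36, adjusted p = 0.0035), Scd2 (1.33 ± 0.21, adjusted p = 0.00016), Abcg1 (0.91 ± 0.20, adjusted p = 0.0055), Srebf1 (0.55 ± 0.09, adjusted p = 0.00033), Stard4 (0.48 ± 0.13, adjusted p = 0.02), Elovl6 (0.45 ± 0.12, adjusted p = 0.024) and Dhcr7 (0.45 ± 0.11, adjusted p = 0.015). Stard4 was not called without naive T1792del 3 or stimulated T1792del 1, nor Elovl6 without naive wild-type 3 or stimulated T1792del 1 (adjusted p 0.0525 to 0.08). Calls over all genes fell from 833 to 443 without stimulated T1792del 1 and to 467 without naive wild-type 3. With female libraries alone 1 member was called.

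Few members differed between stimulated T1792tg and wild-type cells. In stimulated T1792tg cells 4 members were higher than in wild-type and 2 lower (median -0.05), where 6.1% of tested genes were higher and 6.45% lower. Fasn was at 648, 787, 896 and 1062 CPM (log2 fold change 0.41 ± 0.12, adjusted p = 0.022) and Scd2 at 223, 232, 194 and 208 CPM (log2 fold change 0.48 ± 0.15, adjusted p = 0.027), and both overlapped wild-type. Abca1 was at 1.13, 1.28, 2.31 and 2.11 CPM (log2 fold change 1.26 ± 0.32, adjusted p = 0.0079) and Abcg1 at 8.6, 6.2, 7.71 and 7.87 CPM (log2 fold change 0.59 ± 0.16, adjusted p = 0.014). Abca1 was above wild-type in every library, and Abcg1 overlapped. Insig1, at 88.7, 79.6, 78.8 and 72.2 CPM (-0.39 ± 0.13, adjusted p = 0.039), and Ebp (-0.26 ± 0.09, adjusted p = 0.0466) were lower. Idi1, at 84.2, 76.8, 79.4 and 81.7 CPM, Hmgcs1, at 249, 236, 222 and 231 CPM, and Sqle, at 108, 98.7, 99.98 and 107 CPM, were not called (-0.001, -0.10 and -0.04). Srebf1 (73.2, 82.3, 84.6 and 81.5 CPM), Srebf2 (278, 288, 308 and 325 CPM) and Stard4 (47.2, 50.4, 46.5 and 47.8 CPM) were not called either (-0.02, -0.02 and -0.23). Mylip (4.81, 4.18, 5.47 and 4.97 CPM), Acaca (120.4, 132, 146 and 168 CPM) and Scd1 (7.08, 6.58, 9.55 and 6.78 CPM) also missed the threshold (-0.12, 0.24 and 0.29).

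Of the 6 calls in stimulated T1792tg cells only that of Abca1 was made without each single library (adjusted p of the others up to 0.175). Abcg1 was lost without wild-type 3, Fasn without T1792tg 3 or 4 or wild-type 4, and Scd2 without T1792tg 1, 2 or 4 or wild-type 3 or 4. Insig1 was lost without T1792tg 2, 3 or 4 or wild-type 1, 2 or 4, and Ebp without any library but T1792tg 1. With female libraries alone, which leave 1 T1792tg library assumed to vary like the other groups, 0 members were called, and a fit of these 2 groups alone called 4 lower. Calls over all genes rose from 1713 to 2631 in the fit of these 2 groups and fell to 962 without T1792tg 4 and 1092 without T1792tg 3 or wild-type 1. The response to stimulation was more positive or less negative in T1792tg than in wild-type cells for 5 members and more negative for 6, where 8.59% and 7.41% of tested genes were called. Fasn (0.76 ± 0.17, adjusted p = 0.0027), Abcg1 (0.70 ± 0.20, adjusted p = 0.018), Hsd17b7 (0.58 ± 0.18, adjusted p = 0.021), Acaca (0.40 ± 0.14, adjusted p = 0.0454) and Scap (0.38 ± 0.10, adjusted p = 0.0095) made up the first group. Tm7sf2 (-0.78 ± 0.18, adjusted p = 0.0031), Ebp (-0.43 ± 0.12, adjusted p = 0.016), Fdft1 (-0.41 ± 0.12, adjusted p = 0.018), Nsdhl (-0.40 ± 0.12, adjusted p = 0.024), Dhcr7 (-0.39 ± 0.11, adjusted p = 0.018) and Sc5d (-0.36 ± 0.12, adjusted p = 0.035) made up the second. Scap, Tm7sf2, Ebp and Fasn were called without each single library. The call was lost without naive T1792tg 3 or stimulated wild-type 1 for Fdft1, stimulated T1792tg 3 or stimulated wild-type 1 or 2 for Nsdhl, stimulated T1792tg 4 for Hsd17b7, naive wild-type 2 for Dhcr7 and stimulated wild-type 3 for Abcg1. That of Sc5d was lost without any of 10 libraries (naive or stimulated T1792tg 2 or 3, stimulated T1792tg 4, naive wild-type 1, 2 or 3, stimulated wild-type 1 or 4), and that of Acaca without any of 11 (naive T1792tg 1, 2 or 3, stimulated T1792tg 3 or 4, naive wild-type 1, 2 or 4, stimulated wild-type 2, 3 or 4).

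The same genotypes were compared before stimulation. In naive T1792tg cells 6 members were higher than in wild-type and 6 lower (median 0.06), where 10.5% of tested genes were higher and 12.6% lower. Scd2 was at 162, 158, 153 and 166 CPM in naive T1792tg libraries, each above the wild-type libraries (log2 fold change 0.92 ± 0.15, adjusted p = 2.5e-05). Mylip was at 49.2, 51.2, 48.3 and 47.4 CPM, each below them (log2 fold change -0.42 ± 0.10, adjusted p = 0.0016), and Elovl6 was higher (0.49 ± 0.09, adjusted p = 8.7e-05). Insig2 (0.41 ± 0.10, adjusted p = 0.003), Tm7sf2 (0.46), Sc5d (0.35) and Abca1 (0.47) were also higher, and Hsd17b7 (-0.45 ± 0.13, adjusted p = 0.011), Srebf2 (-0.33), Fasn (-0.35), Mvk (-0.33) and Scap (-0.28) lower. The calls of Mvk (T1792tg 3, wild-type 1 or 2), Fasn (T1792tg 2, 3 or 4, wild-type 1, 2 or 3) and Abca1 (T1792tg 1 or 4, any wild-type library) were lost without a single library (adjusted p 0.0517 to 0.207). With female libraries alone 3 members were higher and 0 lower. The naive T cell marker sum of 4021 to 4966 CPM lay below the wild-type range of 5224 to 5676 CPM, and the CD8 and NK sum of 86.5 to 140 CPM above that of 75.9 to 80.1 CPM; their part was not tested.

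In naive T1792del cells 3 members were higher than in wild-type and 1 lower (median 0.13), where 2.76% of tested genes were higher and 2.42% lower. Mylip was at 108, 101.27, 87 and 87.2 CPM in naive T1792del libraries, each above the wild-type libraries (log2 fold change 0.55 ± 0.09, adjusted p = 0.00031). Elovl6, at 18.3, 18.5, 19.8 and 20.6 CPM, was below each of them (log2 fold change -0.40 ± 0.09, adjusted p = 0.0048). Sqle (0.45 ± 0.12, adjusted p = 0.019) and Fdps (0.32 ± 0.10, adjusted p = 0.0442) were higher, the first not without T1792del 4 or wild-type 3, the second not without T1792del 1, 2 or 4 or wild-type 2 or 3 (adjusted p 0.0623 to 0.204). Abca1 and Abcg1 were not called (-0.12 ± 0.17, adjusted p = 0.75 and -0.16 ± 0.12, adjusted p = 0.5). Of the 10 myeloid markers 6 were higher, and the sum of the 10, 218 to 325 CPM, lay above the wild-type range. The red cell sum (393 to 1848 against 108 to 311 CPM) and the CD8 and NK sum (88.1 to 138 against 75.9 to 80.1 CPM) also lay above the wild-type ranges. The part of these markers in the levels of members, called or not, was not tested. Calls over all genes fell from 708 to 439 without T1792del 3 and to 469 without wild-type 3.

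In naive CD28ko-labelled cells 8 members were higher than in wild-type and 2 lower (median 0.11), where 7.42% of tested genes were higher and 7.34% lower. Sqle (0.41 ± 0.12, adjusted p = 0.018), Sc5d (0.51 ± 0.09, adjusted p = 0.00015), Msmo1 (0.34 ± 0.10, adjusted p = 0.018), Stard4 (0.34 ± 0.09, adjusted p = 0.013), Cyp51 (0.33 ± 0.10, adjusted p = 0.019) and Hmgcs1 (0.31 ± 0.09, adjusted p = 0.02) of the sterol pathway were higher, as were Insig2 (0.36 ± 0.10, adjusted p = 0.014) and Fads1 (0.28 ± 0.09, adjusted p = 0.029). Abca1, at 25.7, 36.4, 40.7 and 32.4 CPM, lay below wild-type in each library (log2 fold change -0.61 ± 0.17, adjusted p = 0.016), as did Srebf1 at 91, 87.2, 84.7 and 85.7 CPM (log2 fold change -0.23 ± 0.07, adjusted p = 0.018). The myeloid sum was 75.5 to 151 CPM against 112 to 169 CPM in naive wild-type, with 3 of 10 markers lower, and the regulatory T cell sum 136 to 160 CPM against 216 to 265 CPM. Their part in these differences was not tested. The call of Sc5d was made without each single library, and the other 9 were each lost without 1 to 5 single libraries (adjusted p 0.0507 to 0.0962). Wild-type 3 ended 6 of the 9 calls, CD28ko-labelled 4 ended 5 and CD28ko-labelled 2 ended 4. CD28ko-labelled 3 and wild-type 1 ended 3 each, wild-type 2 ended 2, and CD28ko-labelled 1 and wild-type 4 ended 1 each. A fit of these 2 groups alone called 3 members higher and 1 lower, while its calls over all genes fell from 2015 to 956. They were 1170.0 without CD28ko-labelled 4 and at most 1331 without wild-type 2 or 3.

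In naive rescue cells 3 members were higher than in CD28ko-labelled cells and 6 lower (median -0.07), where 7.84% of tested genes were higher and 8.92% lower. Scd2 was at 105, 134 and 159.7 CPM in naive rescue and 60.7, 77.1, 72.9 and 59.2 CPM in naive CD28ko-labelled libraries, without overlap (log2 fold change 0.98 ± 0.16, adjusted p = 4.7e-05). Tm7sf2 (0.42 ± 0.13, adjusted p = 0.023) and Elovl6 (0.29 ± 0.09, adjusted p = 0.027) were also higher. Mylip was at 58.3, 53.9 and 64.7 CPM in naive rescue and 68.2, 79.5, 87 and 70.9 CPM in naive CD28ko-labelled libraries (log2 fold change -0.37 ± 0.10, adjusted p = 0.011). The regulatory T cell sum was 179 to 204 CPM in naive rescue and 136 to 160 CPM in naive CD28ko-labelled libraries, and its part was not tested. Hsd17b7 (-0.47 ± 0.14, adjusted p = 0.018), Insig1 (-0.40 ± 0.14, adjusted p = 0.0447), Msmo1 (-0.38 ± 0.11, adjusted p = 0.011), Idi1 (-0.35 ± 0.11, adjusted p = 0.029) and Cyp51 (-0.30 ± 0.10, adjusted p = 0.044) were lower. Of these 9 calls that of Scd2 was made without each single library, and the others were each lost without 2 to 5 single libraries (adjusted p 0.0534 to 0.227). Rescue 2 ended 7 of the 8, CD28ko-labelled 2, 3 and 4 and rescue 3 ended 4 each, rescue 1 ended 2 and CD28ko-labelled 1 ended 1. A fit of these 2 groups alone called 1 member higher and 0 lower, while its calls over all genes fell from 2288 to 802.

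Mylip and Scd2 were each called in 5 of the 6 comparisons of T1792del or T1792tg with wild-type and of rescue with CD28ko-labelled cells. These comparisons share control libraries within a state. How many of all tested genes were called as often was not counted, so the 5 of 6 cannot be set against that share. Mylip was higher in T1792del than in wild-type cells, naive and at 24 h, and lower in rescue than in CD28ko-labelled cells in both states. In T1792tg cells it was lower when naive (-0.42) and not called at 24 h (-0.12). Each of the rescue calls of Mylip was lost without either of 2 single libraries. Mylip was also called higher in stimulated CD28ko-labelled than in stimulated wild-type cells. Scd2 was higher with the transgene in all 4 such comparisons (0.92 and 0.48 in T1792tg, 0.98 and 1.003 in rescue). Its call in stimulated T1792tg cells was lost when any of 5 single libraries was left out. Scd2 was also higher in T1792del cells at 24 h (0.92) though not called there when naive (-0.41 ± 0.15, adjusted p = 0.11).

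MicroRNAs pair through their seed, bases 2 to 8, with the 3' untranslated region of target transcripts. A site counted here matches bases 2 to 8, or matches bases 2 to 7 and is followed by an A. Sites of 8 bases have both. The mature sequences of the cluster (RefSeq, GRCm38.p6, chromosome 14) are shown to define the sites looked for, with the seed in capitals. miR-17-5p and miR-20a-5p share a seed, and so do miR-19a-3p and miR-19b-3p.
miR-17-5p: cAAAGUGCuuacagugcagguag
miR-20a-5p: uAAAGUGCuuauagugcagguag
miR-18a-5p: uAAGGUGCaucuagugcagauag
miR-19a-3p: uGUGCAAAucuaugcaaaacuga
miR-19b-3p: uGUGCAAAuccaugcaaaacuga
miR-92a-3p: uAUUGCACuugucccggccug

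A site of at least 7 bases for any of the 4 seeds stood in the annotated 3' untranslated region of 19 of the 35 members (54.3%), against 5663 of 12515 genes with such a region (45.2%); the members' regions were longer, with a median of 1553 against 1148 bases. Sites of 8 bases were found in 7 members (20%), against 13.2% of all genes. By seed, miR-17/20a sites were found in 17.1% of members and 21.4% of genes, miR-18a in 25.7% and 14.3%, miR-19 in 25.7% and 18.9%, and miR-92a in 17.1% and 13.6%. Mylip was the only member with sites of all 4 seeds. Its miR-17/20a site does not match base 8 of the seed and was counted for the A that follows. The sites are shown here with the counted bases in capitals (GRCm38.p6, plus strand). In the order shown, the capitals stand at chr13:45411750-45411756, chr13:45410834-45410840, chr13:45411824-45411831 and chr13:45411710-45411717.
Mylip, miR-17/20a: cctacactgtCACTTTActgagattt
Mylip, miR-18a: caaccgtggGCACCTTttaggaaatg
Mylip, miR-19: atttgtttcTTTGCACAgacattttg
Mylip, miR-92a: cctcatcggGTGCAATActagctaag

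Abca1, also higher in T1792del cells at 24 h, has an 8-base miR-17/20a site (minus strand, chr4:53031005-53031012) and 2 miR-19 sites. Abcg1 has 2 miR-19 sites and 1 miR-92a site. A match shows only the letters, and both transporters were also higher in stimulated T1792tg and CD28ko-labelled cells than in wild-type. Members that differed in other directions hold sites too. Elovl6 has an 8-base miR-17/20a site and a miR-92a site, and was lower in naive T1792del and higher in naive T1792tg cells than in wild-type. Scd2, called higher in T1792tg and rescue cells and in stimulated T1792del cells, has a miR-18a site.
Abca1, miR-17/20a: tcattccaaGCACTTTAtgctgtctg

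Other genes of the pathways were read from lists that hold no member. In the wild-type stimulation response, where 41.3% of all tested genes rose and 43.9% fell, 8 of 12 genes of the isoprenoid branches rose and 2 fell, with Pdss1, which builds the ubiquinone side chain, at 2.37 ± 0.11, adjusted p = 1.7e-20. Of 11 further genes of the late sterol steps 4 rose and 5 fell, and those that fell included Lbr (-0.89 ± 0.06, adjusted p = 8.5e-16), a C14 reductase of the nuclear membrane like Tm7sf2 in activity. Of 22 genes of fatty acid supply 14 rose, such as the acyl-CoA synthetase Acsl5 (1.43 ± 0.05, adjusted p = 6.1e-24), and 7 fell, such as Acss2 (-3.00 ± 0.11, adjusted p = 7.2e-24), which makes acetyl-CoA from acetate, and Lpin1 (-3.33 ± 0.12, adjusted p = 7.7e-24). Of 11 genes listed as LXR receptors or possible responsive genes 2 rose and 8 fell, with Smpdl3a at -5.07 ± 0.15, adjusted p = 5e-26 and Abca7 at -2.79 ± 0.11, adjusted p = 1.5e-22. Whether Abca7 or the others on this list respond to LXR was not tested. Of 9 genes of fatty acid oxidation 4 rose and 2 fell. The carnitine transferase Cpt1a, at -2.43 ± 0.16, adjusted p = 1.8e-16, was among those that fell, though more genes of this list rose. The shares of the late sterol and oxidation lists that rose were near that of all genes.

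Between stimulated CD28ko-labelled and wild-type cells, where 23.7% of tested genes were higher and 27.8% lower, the same lists gave 2 of 12 isoprenoid genes higher and 7 lower, with Pdss1 at -0.85 ± 0.10, adjusted p = 1.4e-08. Of the 11 genes on the LXR list 3 were higher and 2 lower, and the share higher was near that of all tested genes. Smpdl3a (1.60 ± 0.16, adjusted p = 2.8e-10) and Abca7 (1.45 ± 0.11, adjusted p = 2.6e-13) were higher and the partner receptor Rxra lower (-1.55 ± 0.13, adjusted p = 2.7e-12). Of 22 fatty acid supply genes 3 were higher and 5 lower, both smaller shares than those of all tested genes. Acss2, at 0.99 ± 0.11, adjusted p = 1.4e-09, and Lpin1, at 1.02 ± 0.12, adjusted p = 9.1e-09, were among those higher, though more genes of this list were lower. Of 9 oxidation genes 5 were higher and 1 lower, with Cpt1a at 0.95 ± 0.15, adjusted p = 3.8e-06. In stimulated rescue against CD28ko-labelled cells 9.52% of tested genes were higher and 8.86% lower. Smpdl3a (-1.07 ± 0.16, adjusted p = 1e-05), Acss2 (-0.51 ± 0.11, adjusted p = 0.0013) and Lpin1 (-0.55 ± 0.13, adjusted p = 0.0017) were lower and Pdss1 higher (0.61 ± 0.11, adjusted p = 9.6e-05). These are single genes, given without the counts of their lists, and the members Abca1 and Abcg1 were not called in this comparison. In stimulated T1792del cells, where 7.77% of tested genes were higher and 8.47% lower than in wild-type, 5 of the 22 supply genes were higher and 0 lower, with Lpin1 at 0.93 ± 0.12, adjusted p = 1e-06 and Scd4, a further stearoyl-CoA desaturase, at 1.27 ± 0.26, adjusted p = 0.00078.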

How the data were processed

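Raw read counts, as whole numbers, were deposited for 24028 genes (Entrez Gene numbers) in 38 libraries; the authors also deposited 1 column of gene lengths, used only for levels per kilobase. Per the labels' protocols, RNA of single mice was made into stranded polyA libraries and read as single ends of 76 nt. The submitters' processing notes name mm10, STAR 2.5.2a, FastQC 0.11.5, edgeR 3.24.3 and R 3.5. Which tool, annotation and strand setting gave the counts is not given in the sources used here. No column of samples was left unused.

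Symbols came from RefSeq and matched 23968 identifiers; the others took 0.0749% of counts. After edgeR's filterByExpr 13650 genes remained. Library sizes were scaled by TMM, and all libraries entered 1 quasi-likelihood model with a term for each group (edgeR 4.0.16 under R 4.3.3), whose script was tested on simulated counts. The 18 contrasts were tested two-sided by edgeR's quasi-likelihood F test, with Benjamini-Hochberg adjustment over all genes of a comparison. A standard error is the size of the log2 fold change over the square root of F. Several comparisons share the same wild-type or CD28ko-labelled libraries. Replicates within a group are libraries of different mice as far as the labels say. Naive and stimulated libraries of the same number may share a mouse, and the main tests took them as independent. No count of 0 was given a fold of its own.

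The members, gene lists and tests were chosen with earlier results of these data known. All 35 members may be named. Values of each library are given for Srebf1, Srebf2, Insig1, Hmgcs1, Idi1, Sqle, Stard4, Acaca, Fasn, Scd1, Scd2, Abca1, Abcg1 and Mylip, and for up to 4 further called members with the smallest p of a comparison; from each other list at most 3 called genes per comparison are named. Promoter windows and mature microRNAs are from RefSeq (GRCm38.p6), and target sites were sought in the 3' untranslated region of GENCODE transcripts of at least 30 bases.

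Alternatives were RLE size factors, DESeq2 1.42.0, no filter, a filter at a mean of 5 CPM, the compared groups alone, the replicate number as a block, sex as a term, and each library left out in turn. A fit of female libraries alone was added after seeing the data.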

Additional observations from a re-analysis of the deposited data

Results flagged for a closer look

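For 5 of the 112 sets of 1 gene in 1 group of 4 libraries (14 genes, 8 groups), 1 library stood apart from the other three by Dixon's criterion, and chance gives about 1 in 20 such sets. Srebf1 was at 85.5 CPM in stimulated CD28ko-labelled library 3, below the others of its group. Stard4 was at 15.8 CPM in naive T1792del library 3 and at 68.0 CPM in stimulated T1792del library 4, both below the rest. Scd1 was at 9.55 CPM in stimulated T1792tg library 3, and Abca1 at 0.907 CPM in stimulated wild-type library 2, both above the rest.

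The stimulation response differed between 2 genotypes by the test of the interaction for 49 values of members. Of all tested genes 20.8% were called higher and 22.4% lower in CD28ko-labelled than in wild-type cells. The shares were 3.15% and 2.95% in T1792del and 8.59% and 7.41% in T1792tg against wild-type cells. They were 6.96% and 5.84% in rescue against CD28ko-labelled cells. Calls that were lost without single libraries are given above for each contrast. The log2 response of CD28ko-labelled cells exceeded that of wild-type cells for Abcg1 (2.07), Abca1 (1.96), Srebf1 (0.52), Mylip (0.43) and Scap (0.38). It was below that of wild-type cells for Idi1 (-0.92), Elovl6 (-0.87), Hsd17b7 (-0.85), Acat2 (-0.80), Insig1 (-0.78), Sqle (-0.74), Cyp51 (-0.74), Hmgcs1 (-0.73), Msmo1 (-0.70), Insig2 (-0.70), Sc5d (-0.56), Fads1 (-0.56), Scd2 (-0.55), Fdps (-0.52), Stard4 (-0.49), Ebp (-0.44), Lss (-0.43), Fdft1 (-0.42), Pmvk (-0.39) and Dhcr7 (-0.28). The log2 response of T1792del cells exceeded that of wild-type cells for Abca1 (1.68), Scd2 (1.33), Abcg1 (0.91), Srebf1 (0.55), Stard4 (0.48), Elovl6 (0.45) and Dhcr7 (0.45). The log2 response of T1792tg cells exceeded that of wild-type cells for Fasn (0.76), Abcg1 (0.70), Hsd17b7 (0.58), Acaca (0.40) and Scap (0.38). It was below that of wild-type cells for Tm7sf2 (-0.78), Ebp (-0.43), Fdft1 (-0.41), Nsdhl (-0.40), Dhcr7 (-0.39) and Sc5d (-0.36). The log2 response of rescue cells exceeded that of CD28ko-labelled cells for Hsd17b7 (0.98), Idi1 (0.54), Sqle (0.52), Msmo1 (0.50) and Fads1 (0.45). It was below that of CD28ko-labelled cells for Tm7sf2 (-0.62).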

How the results depend on the processing

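No called value of a member changed sign under an alternative, though values called under neither could. Of 319 called member values, 314 were still called with RLE size factors, 316 with DESeq2, 308 without a filter, 309 with a term for sex, 294 in fits of the compared groups alone and 260 with female libraries alone; with a filter at a mean of 5 CPM it was 302 of 312. Leaving out single libraries kept 2577 of 2840. Female libraries leave 1 T1792tg library, assumed to vary like the others.

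Counts of members (higher, lower) moved by over 1.5 times as follows. In fits of the compared groups alone, naive CD28ko-labelled against wild-type gave 3 and 1, naive rescue against CD28ko-labelled 1 and 0, stimulated rescue against CD28ko-labelled 13 and 2, naive T1792del against wild-type 2 lower, and stimulated T1792tg against wild-type 4 lower. The last was also 4 with DESeq2, and 1 with RLE size factors or without a filter; the sex term gave 2 lower for naive T1792del. Female libraries alone gave 3 and 0 in naive T1792tg, 0 and 0 in stimulated T1792tg, 7 higher in stimulated T1792del, 1 lower in naive CD28ko-labelled, and for the difference of responses 1 higher in T1792del and 0 and 0 in T1792tg. These alternatives have fewer libraries or other weights, and the cause was not tested.

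Without single libraries the counts ranged over 2 to 10 higher and 1 to 3 lower in naive CD28ko-labelled, 1 to 4 and 1 to 2 in naive T1792del, 1 to 4 and 1 to 7 in naive rescue against CD28ko-labelled, 2 to 4 and 0 to 4 in stimulated T1792tg, 3 to 7 and 0 to 1 in stimulated rescue against CD28ko-labelled, and 7 to 12 lower in stimulated rescue against wild-type. For the difference of responses they ranged over 3 to 5 and 3 to 6 in T1792tg and 3 to 6 and 0 to 1 in rescue against CD28ko-labelled.

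Over all genes, fits of the compared groups alone called 956 (naive CD28ko-labelled), 1913 (naive T1792tg), 802 (naive rescue against CD28ko-labelled), 2631 (stimulated T1792tg) and 3851 genes (stimulated rescue against CD28ko-labelled). Female libraries alone called 397 in naive and 672 in stimulated T1792del, 518 in naive and 221 in stimulated T1792tg, and 141 and 69 for the difference of responses of T1792del and T1792tg. Without single libraries the calls over all genes moved by over 1.5 times in 7 comparisons: to 1170.0 to 1331 in naive CD28ko-labelled, 439 to 469 in naive and 1388 in stimulated T1792del, 962 to 1092 in stimulated T1792tg, 1300.0 to 1595 in stimulated rescue against CD28ko-labelled, and, for the difference of responses, 443 to 467 in T1792del and at most 1144 in rescue against CD28ko-labelled (without stimulated rescue 2 or 3). The all-gene shares beside the members' counts move with them. With 8-base sites only, 7 in place of 19 members held a seed site.

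The labels do not say whether same-numbered naive and stimulated libraries share a mouse. Most values go with a shared mouse, since 16 of 19 naive libraries were closest to the stimulated library of their own number and genotype. All 19 pairs had the same sex. Their correlations of deviations were 0.0169 to 0.234, over 0.1 in 12 of 19 pairs and in all 4 T1792del pairs. Same-numbered libraries of 1 state in different genotypes had a mean correlation of 0.00074. The main tests did not use such a link and took all libraries as independent. With the replicate number as a block 314 of 319 values were still called, and within genotype 206 of 209, and no count of members moved by over 1.5 times. At these depths low genes such as Fads2 and stimulated Abca1 rest on few counts per library.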
